A study of Mus musculus with 6 samples.

Results

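The Notch receptors, their ligands and their target genes were followed in MC3T3-E1, a pre-osteoblast line from newborn C57BL/6 mouse calvaria, before and after osteoblast induction. The set was chosen by gene name, as the probe sets whose annotation names exactly 1 gene and that gene is 1 of Notch1, Notch2, Notch3, Notch4, Jag1, Jag2, Dll1, Dll4, Hes1 and Hey1. All 10 genes were found, each read by 1 such probe set, among 19938 genes tested. RNA from 3 undifferentiated and 3 differentiated samples was hybridised to 1-colour Affymetrix arrays, 1 array per sample. Undifferentiated cells had no treatment and grew in α-MEM free of ascorbic acid. Differentiated cells were confluent cells given 14 days of DMEM containing 1 mM sodium pyruvate, 0.1 µM of the glucocorticoid dexamethasone, 0.2 mM ascorbic acid-2-phosphate and 10 mM β-glycerophosphate. Both media held 10% serum. Basal medium, confluence, time and inducing agents differ together between the groups and cannot be told apart. The replicates are called independent with nothing said of what separated them, so p-values measure the spread between these samples, which may be technical.

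Notch is a receptor that is activated by contact with a neighbouring cell. A Jagged or Delta-like ligand on the neighbour binds it, ADAM proteases and then gamma-secretase cut it, and the freed intracellular part enters the nucleus, joins the DNA-binding protein Rbpj and a Mastermind-like coactivator, and switches on Hes and Hey genes, which encode transcriptional repressors. In the osteoblast lineage Notch activity is known to restrain the maturation of precursors, and it has other effects in more mature cells.

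The deposited log2 values are centred, so that each probe set has a median of 0 over the 6 arrays. They show differences between arrays, but not whether a gene was expressed, how strongly, or how one gene's level compares with another's. Array medians lay between -0.00499 and 0.00838, and the residual SD around the group mean was 0.0746 to 0.0787 on differentiated and 0.0817 to 0.0949 on undifferentiated arrays. Of 11 osteoblast markers listed, 8 were tested, and Runx2, Bglap and Spp1 were not. Of the 8, 5 were higher in differentiated cells and 2 lower, beside 16.4% and 19.1% of all genes. Among the higher ones were the bone sialoprotein gene Ibsp (log2 fold change 3.12 ± 0.09, SE) and the alkaline phosphatase gene Alpl (0.96 ± 0.08). The collagen gene Col1a2 was at -0.13 ± 0.06 and was not called. The collagen gene Col1a1 and the osteoblast transcription factor gene Sp7 were lower (both -0.40 ± 0.07), although the call for Sp7 was lost after cyclic loess scaling (-0.19, adjusted p = 0.150, limma).

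After induction the receptor genes Notch1 and Notch2 and the target Hes1 were higher, each by a factor close to 2, and the ligand Jag1 was lower. Hes1 was 2.31-fold, Notch1 1.97-fold and Notch2 1.95-fold higher, and Jag1 was 1.55-fold lower (3 arrays per group). The other 6 genes, Notch3, Notch4, Jag2, Dll1, Dll4 and Hey1, did not pass the test. Calls were made at an adjusted p under 0.05 with limma, two-sided and adjusted by Benjamini-Hochberg over all genes tested. By that rule 35.5% of all genes were called, 16.4% higher and 19.1% lower, and 4.81% were called with a change of at least 2-fold. Among the members 4 of 10 were called, 3 higher and 1 lower, and 1 (Hes1) reached 2-fold. The share called is close to that of all genes and is not in itself a result about the Notch genes. The median log2 fold change of the members was 0.13 beside 0.02 for all genes, and groups did not overlap for 5 of 10 members beside 46.2% of all genes.

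**Figure D1:**
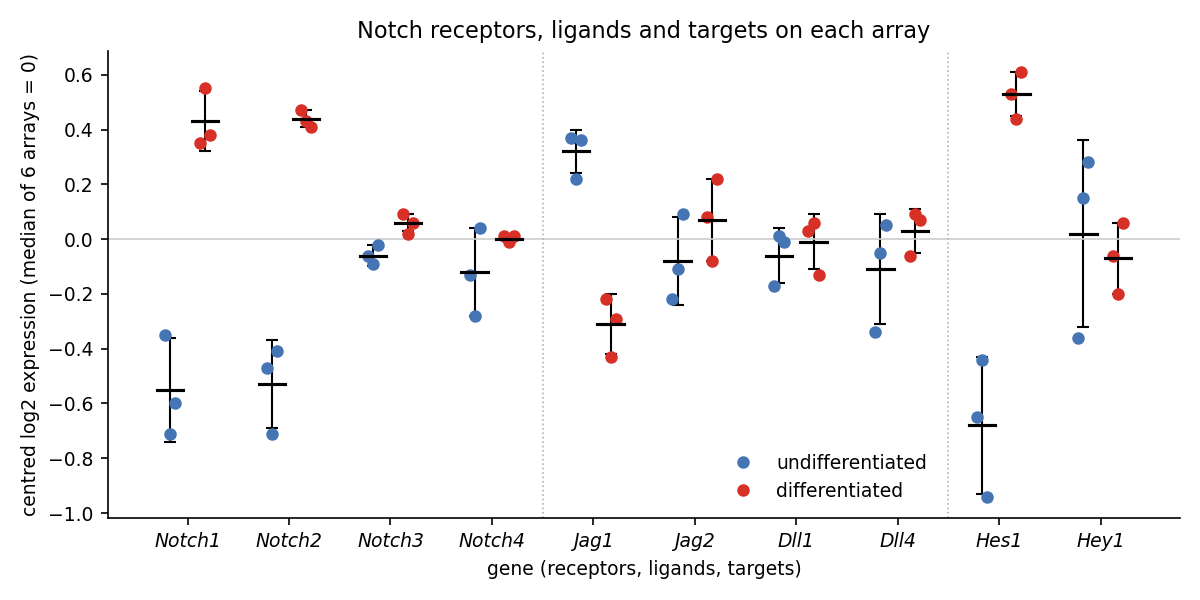
Centred log2 expression (vertical axis) of the 10 genes on each of the 6 arrays, with undifferentiated arrays in blue and differentiated arrays in red; bars are group means and whiskers are 1 SD (n = 3). Notch1, Notch2 and Hes1 lie wholly higher and Jag1 wholly lower after induction, while in 5 of the 6 genes that did not pass the test the groups overlap.

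The upstream sequences of Notch1, Notch2 and Jag1 are shown because receptors and ligand moved in opposite directions, together with that of Lfng, whose product modifies Notch and which fell 2.12-fold. Each is the 250 bases before the RefSeq start (build GRCm38.p6), in the gene's own direction. Capitals mark matches on either strand to TGGGAA, the core of the Rbpj recognition site, to CACGNG, letters shared by binding sites of Hes and Hey repressors, and to GGGCGG, the GC box. Notch1 lies at chr2:26503823-26504072 on the minus strand, Notch2 at chr3:98013288-98013537 on the plus strand, Jag1 at chr2:137116521-137116770 on the minus strand and Lfng at chr5:140607091-140607340 on the plus strand.
Notch1: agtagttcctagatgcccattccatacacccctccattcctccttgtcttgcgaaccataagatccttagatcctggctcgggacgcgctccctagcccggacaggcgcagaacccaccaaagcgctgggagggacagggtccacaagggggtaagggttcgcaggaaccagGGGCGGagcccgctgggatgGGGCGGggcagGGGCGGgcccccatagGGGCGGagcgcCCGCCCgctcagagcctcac
Notch2: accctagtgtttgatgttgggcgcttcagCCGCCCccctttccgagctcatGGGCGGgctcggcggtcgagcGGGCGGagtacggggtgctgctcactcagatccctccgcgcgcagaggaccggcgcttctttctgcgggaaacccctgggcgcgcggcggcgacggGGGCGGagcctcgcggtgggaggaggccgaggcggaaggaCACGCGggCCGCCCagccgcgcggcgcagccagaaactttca
Jag1: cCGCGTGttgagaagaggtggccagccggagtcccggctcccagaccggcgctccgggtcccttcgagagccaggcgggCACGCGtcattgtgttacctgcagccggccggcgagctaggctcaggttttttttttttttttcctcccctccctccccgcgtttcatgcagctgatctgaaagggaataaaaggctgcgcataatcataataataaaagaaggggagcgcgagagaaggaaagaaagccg
Lfng: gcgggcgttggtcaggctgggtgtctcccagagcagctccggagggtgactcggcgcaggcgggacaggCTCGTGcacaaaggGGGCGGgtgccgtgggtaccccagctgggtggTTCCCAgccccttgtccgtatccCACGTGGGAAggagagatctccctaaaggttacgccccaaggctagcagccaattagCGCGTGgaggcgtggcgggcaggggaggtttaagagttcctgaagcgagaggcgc

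The windows of the 2 receptors that rose each held 5 GC boxes, and that of Jag1 held none. A GC box was present in 32.7% of 32817 such windows in the RefSeq table and in 5 of 9 windows of the 8 members matched there (Dll1 has 2 starts). The targets Hes1 and Hey1 had no window there, so their upstream sequences were not searched for any motif. Those windows included Notch3 with 4 and Jag2 with 5, genes that did not pass the test. No member window held TGGGAA, which 21.6% of all windows hold, while Lfng held it at 135 and 108 bases before the start, the latter overlapping a CACGTG. Rbpj, the other gene searched outside the members, also held it in each of its windows. A match to CACGNG was found in 6 of the 9 member windows, against 23.5% of all, with 2 matches in Jag1, 1 in Notch2 and none in Notch1. The member windows had a GC content of 56.0 to 87.2%, beside a median of 52.4% over all windows. CACGNG and GGGCGG are themselves rich in G and C, and the counts were not adjusted for GC content. The palindromic glucocorticoid response element was in no member window and in 0.4% of all. Matches are letters in a short window, and no binding was measured.

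The receptors split into a pair that changed and a pair that did not pass. Notch1 and Notch2 are the broadly expressed receptors and the ones studied most in skeletal cells. On the centred log2 scale Notch1 (probe set 10481056) read -0.35, -0.71 and -0.60 on undifferentiated arrays 1 to 3 and 0.35, 0.55 and 0.38 on differentiated arrays 1 to 3. Every differentiated array lay above every undifferentiated one. The log2 fold change was 0.98 ± 0.10 (SE, 95% interval 0.76 to 1.20, adjusted p = 5.23e-05), and 532 genes (2.67%) had a larger rise. Notch2 (probe set 10494595) read -0.47, -0.71 and -0.41 on undifferentiated and 0.47, 0.43 and 0.41 on differentiated arrays. The differentiated values of Notch2 lay close together (SD 0.03, against 0.16 in undifferentiated cells), and the groups were again apart. Its log2 fold change was 0.97 ± 0.08 (95% interval 0.79 to 1.15, adjusted p = 1.58e-05), and 549 genes (2.75%) rose more. Undifferentiated replicate 2 held the lowest value of both receptors, as it did for Notch3 and Notch4.

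Notch3, a receptor of vascular smooth muscle and pericytes, moved little. Notch3 (probe set 10449775) read -0.06, -0.09 and -0.02 on undifferentiated and 0.09, 0.02 and 0.06 on differentiated arrays. The groups did not overlap, yet the difference was 0.11 ± 0.05 on the log2 scale and did not pass (adjusted p = 0.126). Its interval ended at 0.23, below the log2 fold changes of Notch1 and Notch2. A probe set at background would also read flat, and centred values cannot show whether this one is. Notch4, the receptor of endothelial cells, read -0.13, -0.28 and 0.04 on undifferentiated and 0.01, -0.01 and 0.01 on differentiated arrays (probe set 10444352). Undifferentiated replicate 3 was the highest of all 6 arrays and made the groups overlap. The difference was 0.13 ± 0.08 (95% interval -0.06 to 0.31, adjusted p = 0.277). Without undifferentiated replicate 3 it was 0.21 and passed (adjusted p = 0.0345), whereas adjusted p-values under all alternatives ran from 0.0345 to 0.791.

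Because Notch3, Notch4 and Dll4 mark vascular cells, genes of those cells were read as well. Among 14 endothelial markers 2 (14.3%) were higher, beside 16.4% of all genes. These were the VEGF receptor gene Flt1 (0.76 ± 0.05) and Vwf (0.23 ± 0.06). The other 12 did not pass, among them Pecam1 (0.15 ± 0.06) and Cdh5 (0.12 ± 0.05). The mean of the endothelial list ran from -0.16 to -0.02 on undifferentiated and from 0.04 to 0.07 on differentiated arrays. The call for Vwf did not hold under cyclic loess (0.11, adjusted p = 0.124), nor without any 1 array other than undifferentiated replicate 3 (adjusted p from 0.0572 to 0.0752). Among 11 smooth muscle and pericyte markers 3 (27.3%) were higher, beside the same 16.4%. They were Pdgfrb (1.53 ± 0.07), Tagln (0.73 ± 0.07) and Abcc9 (0.22 ± 0.05). The other 8 did not pass, among them Acta2 (-0.07 ± 0.05) and Rgs5 (0.04 ± 0.05). The mean of that list ran from -0.16 to -0.08 on undifferentiated arrays and was 0.11 on each differentiated array. Whether any of these markers lies at background cannot be read from centred values, and their part in the values of the Notch genes was not tested. In bulk RNA, fewer cells of a type and less RNA per cell cannot be told apart.

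Of the ligands, Jag1 alone passed the test. Jag1, a Jagged ligand and known as a ligand of Notch in bone cells, read 0.37, 0.22 and 0.36 on undifferentiated and -0.22, -0.43 and -0.29 on differentiated arrays (probe set 10488060). All differentiated arrays lay below all undifferentiated ones, opposite to both receptors. The log2 fold change was -0.63 ± 0.07 (95% interval -0.79 to -0.47, adjusted p = 1.19e-04), and 1053 genes had a larger fall. Jag2, the other Jagged ligand, read -0.22, -0.11 and 0.09 on undifferentiated and 0.08, -0.08 and 0.22 on differentiated arrays (probe set 10402808). The groups overlapped, and the difference of 0.15 ± 0.10 did not pass (95% interval -0.07 to 0.38, adjusted p = 0.283).

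The Delta-like ligands also failed to pass. Dll1, which acts in many tissues including somites, read -0.17, 0.01 and -0.01 on undifferentiated and 0.03, 0.06 and -0.13 on differentiated arrays (probe set 10448034). The difference was 0.04 ± 0.07 (95% interval -0.13 to 0.21, adjusted p = 0.720), and its sign turned after cyclic loess. Dll4, the ligand of sprouting blood vessels, read -0.34, -0.05 and 0.05 on undifferentiated and -0.06, 0.09 and 0.07 on differentiated arrays (probe set 10474958). Undifferentiated replicate 1 stood lowest, and the others overlapped. The difference was 0.14 ± 0.10 (95% interval -0.08 to 0.37, adjusted p = 0.311).

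The classic targets Hes1 and Hey1 gave different results. Hes1, a repressor that also limits its own transcription, read -0.65, -0.44 and -0.94 on undifferentiated and 0.53, 0.44 and 0.61 on differentiated arrays (probe set 10434925). The groups were far apart, with more spread among undifferentiated arrays (SD 0.25) than among differentiated ones (SD 0.08). The log2 fold change was 1.21 ± 0.11 (95% interval 0.95 to 1.47, adjusted p = 3.95e-05), and 356 genes (1.79%) had a larger rise. Hey1, the Hes-related repressor that is also known to respond to bone morphogenetic proteins, read -0.36, 0.15 and 0.28 on undifferentiated and -0.06, -0.20 and 0.06 on differentiated arrays (probe set 10497203). The undifferentiated arrays held both the lowest and the highest value, and their SD of 0.34 was the widest of the 10 genes. The difference was -0.09 ± 0.15 (95% interval -0.43 to 0.25, adjusted p = 0.708), an interval that lies below the log2 fold change of Hes1. Whether the Hey1 probe set read above background is unknown, so the interval cannot exclude such a rise in RNA. Without undifferentiated replicate 1 it was -0.28 and passed (adjusted p = 0.0429), and without undifferentiated replicate 3 it was 0.04, with adjusted p-values from 0.0429 to 0.940 over all alternatives. The difference between Hes1 and Hey1 was not tested.

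**Figure D2:**
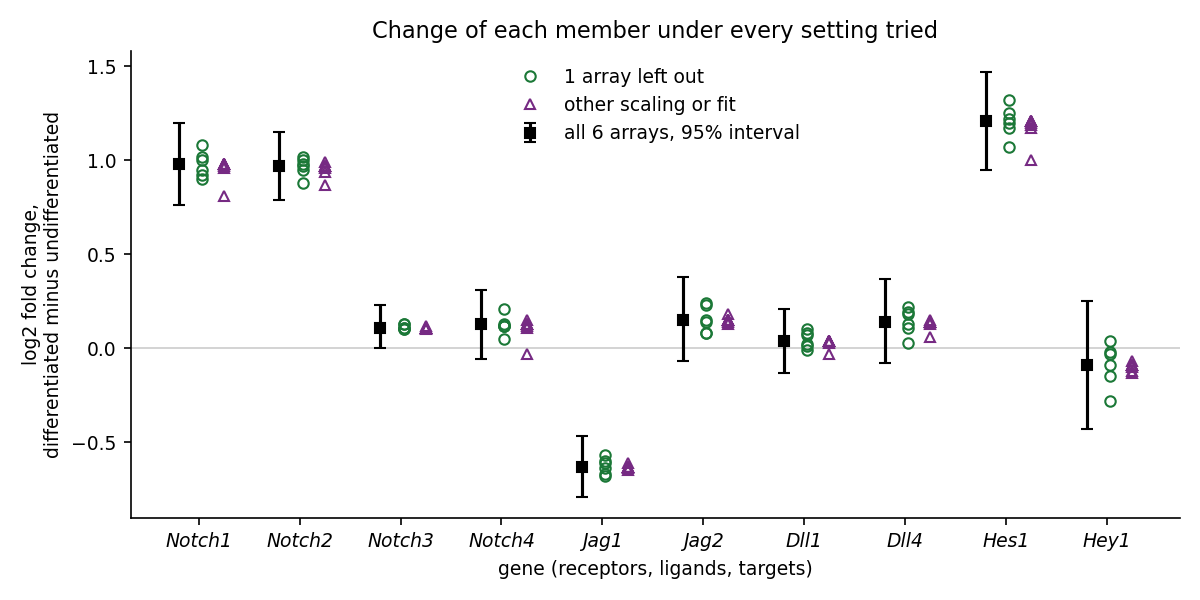
Log2 fold change (vertical axis, differentiated minus undifferentiated) of the 10 genes from all 6 arrays with its 95% interval (black squares), with each array left out in turn (green circles), and under other scalings or fits (purple triangles). Notch1, Notch2 and Hes1 stay above 0.8 and Jag1 below -0.5 in every setting shown, whereas Notch4, Dll1 and Hey1 cross 0.

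Set among all genes, the called Notch genes lay on the flanks of the distribution and not at its ends. Changes over all genes ran from -3.04 (Hs6st2) to 6.99 (Apod). The smallest change in size among the 4 called members, that of Jag1, was still well outside the median size of change of all genes, 0.13.

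**Figure D3:**
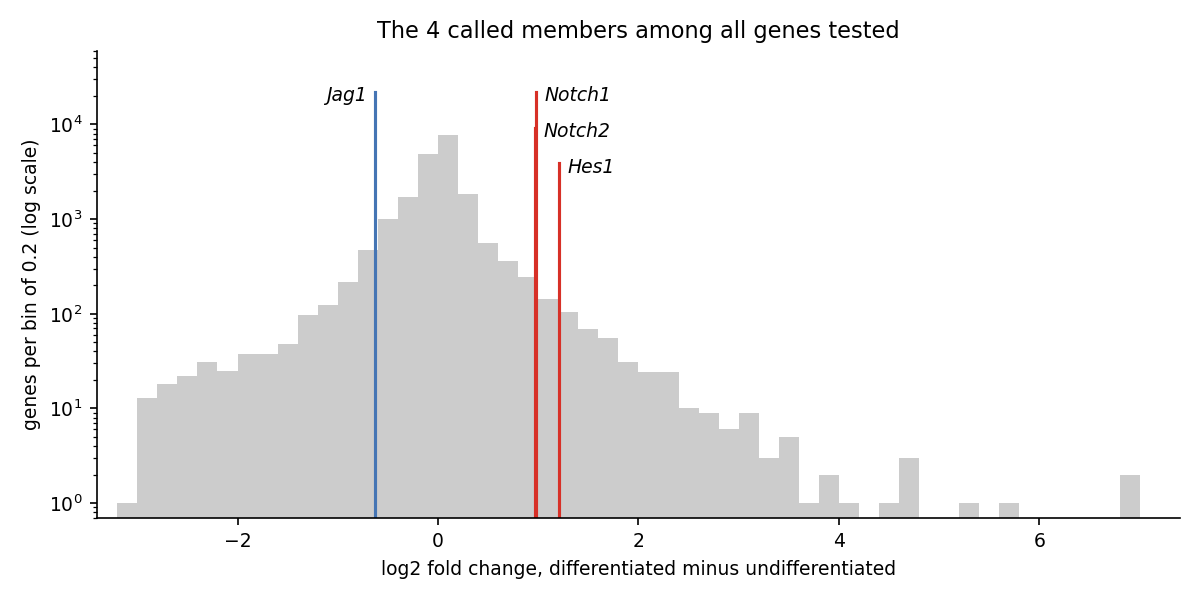
Number of genes (vertical axis, log scale) by log2 fold change in bins of 0.2 (horizontal axis, differentiated minus undifferentiated) for the 19938 genes tested, with the called members drawn as lines. Hes1, at 1.21, lies highest, Notch1 and Notch2 nearly coincide at 0.98 and 0.97, and Jag1 lies at -0.63.

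The genes whose values over the 6 arrays lay nearest to those of the 2 members that changed most were found by Euclidean distance on the centred log2 scale, passing over predicted or unnamed loci. Nearest to Hes1 were Trnp1 (distance 0.24), Map3k6 (0.27) and the activin antagonist gene Fst (0.29), with log2 fold changes of 1.32, 1.15 and 1.30. Nearest to Notch1 were Atp6ap2, which encodes an accessory protein of the vacuolar proton pump (distance 0.16), Pcmtd1 (0.20) and Tbc1d24 (0.22), with log2 fold changes of 1.04, 0.87 and 0.90. Pearson's r was 0.99 for each of these 6 pairs over 6 arrays, which share the split into the same groups of 3.

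Other genes of the pathway were taken from 10 lists by role, which with the members hold 82 genes, 79 of them tested. Of these, 36 (45.6%) were called, 23 higher and 13 lower, beside 35.5% of all genes (16.4% higher and 19.1% lower). Their median log2 fold change was 0.11 beside 0.02. The lists were chosen with earlier results of these data known, so these differences are not in themselves a result about the pathway. The counts of the single lists below are to be read beside the same shares of all genes. Without the members the lists held 69 tested genes, of which 20 were higher and 12 lower.

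**Figure D4:**
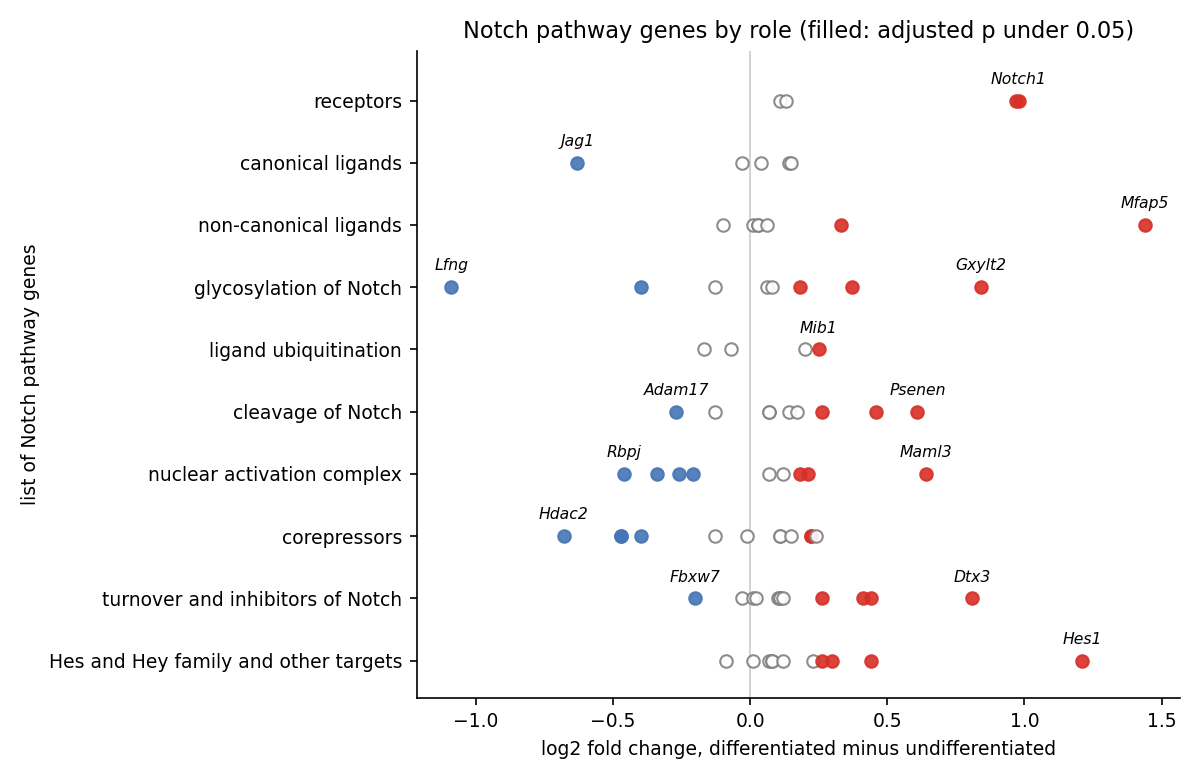
Log2 fold change (horizontal axis, differentiated minus undifferentiated) of 79 Notch pathway genes by role (rows), with filled points for an adjusted p under 0.05 (red higher, blue lower) and open points otherwise. The outermost points are the fall of Lfng at -1.09 and the rises of Mfap5 at 1.44 and Hes1 at 1.21.

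Outside the Jagged and Delta-like families, 2 of 7 non-canonical ligands were higher and none lower. Mfap5, a microfibril protein that can bind Notch and Jagged proteins, was 2.71-fold higher, with -0.86, -0.63 and -0.74 on undifferentiated and 0.76, 0.69 and 0.63 on differentiated arrays (1.44 ± 0.07, adjusted p = 6.57e-07). This was the largest change in the 10 lists. Its relative Mfap2 rose by less (0.33 ± 0.07, adjusted p = 0.00637). Dlk1, a Delta-like inhibitor of fat cell formation, was at 0.06 ± 0.06 and did not pass, nor did the Delta-like ligand Dll3 (-0.03 ± 0.09).

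Sugars are added to the extracellular part of Notch, and some of them affect which ligand it answers to. Of 8 genes for enzymes that add such sugars, 3 were higher, 2 lower and 3 did not pass. Lfng encodes lunatic fringe, which extends O-fucose on Notch and is known to favour Delta-like over Jagged ligands. Lfng read 0.52, 0.50 and 0.52 on undifferentiated and -0.64, -0.50 and -0.60 on differentiated arrays, a 2.12-fold fall with no overlap (-1.09 ± 0.06, adjusted p = 8.86e-07). The other fringe genes were at 0.18 ± 0.06 (Rfng, adjusted p = 0.0337) and 0.06 ± 0.06 (Mfng, not past), and the call for Rfng was lost with the replicate number as a block (0.18, adjusted p = 0.0603) and without undifferentiated replicate 1 or 2 or differentiated replicate 2 or 3 (0.15 to 0.19, adjusted p from 0.0573 to 0.113). The xylosyltransferase genes Gxylt2 (0.84 ± 0.05) and Xxylt1 (0.37 ± 0.08), whose enzymes extend O-glucose, rose, and Gxylt1 fell (-0.40 ± 0.06). Of 4 ubiquitin ligases of the ligands, Mib1 was higher (0.25 ± 0.06, adjusted p = 0.0110) and 3 did not pass.

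Of 9 genes for the cleavage of Notch, 3 were higher, 1 lower and 5 did not pass. Among gamma-secretase subunits, Psenen (0.61 ± 0.07) and the presenilin gene Psen2 (0.46 ± 0.08) rose. Aph1c (0.26 ± 0.08, adjusted p = 0.0290) has a near-identical copy, Aph1b (0.17 ± 0.08, not past), so that transcripts of one can hybridise to the other's probes. The call for Aph1c was lost without differentiated replicate 1 (0.17) or any 1 undifferentiated array (0.25 to 0.27), with adjusted p from 0.0600 to 0.0695. The shedding protease gene Adam17 fell (-0.27 ± 0.06, adjusted p = 0.00650), and Adam10, the protease held to act on ligand-bound Notch, was at -0.13 ± 0.06 (adjusted p = 0.155).

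The nuclear genes had calls in both directions. In the activation complex 3 of 9 were higher and 4 lower, beside 16.4% and 19.1% of all genes. Of the higher ones, Maml2 (0.18 ± 0.05) lost its call in 5 of the 6 fits that left out 1 array. It also lost it with the lowest-numbered probe set. Kat2b (0.21 ± 0.06) lost its call in 3 of those 6 fits. Rbpj, the DNA-binding subunit, had a mean of -0.46 ± 0.05 (adjusted p = 1.09e-04) over probe sets that disagreed, one at 0.00 and the other at -0.92, and with the lowest-numbered probe set it was at 0.00 (adjusted p = 0.979). The direction for Rbpj therefore rests on 1 probe set. The Mastermind-like coactivator gene Maml3 rose (0.64 ± 0.08), and the acetyltransferase gene Kat2a fell (-0.34 ± 0.07). Maml1 was at -0.26 ± 0.08 (adjusted p = 0.0382), but after cyclic loess at 0.08 (adjusted p = 0.279), and its call was lost without any 1 array other than undifferentiated replicate 3 (-0.26 to -0.19, adjusted p from 0.0802 to 0.123). Among 12 corepressor genes tested, 2 were higher (Spen and Tle4, each with its call lost in 4 of the 6 fits that left out 1 array and after cyclic loess, and Spen also with the replicate number as a block, at 0.22 and adjusted p = 0.0541) and 4 lower. The lower ones were the histone deacetylase genes Hdac2 (-0.68 ± 0.08) and Hdac1 (-0.47 ± 0.05) and the C-terminal binding protein genes Ctbp2 (-0.47 ± 0.06) and Ctbp1 (-0.40 ± 0.05), none of which acts on Notch targets alone.

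Genes for Notch turnover and inhibition had 4 of 12 higher and 1 lower. The rises were in the Deltex ubiquitin ligase genes Dtx3 (0.81 ± 0.07), Dtx4 (0.44 ± 0.08) and Dtx1 (0.26 ± 0.07) and in the endocytic kinase gene Aak1 (0.41 ± 0.06). Fbxw7, whose product marks the Notch intracellular part for degradation, had a mean of -0.20 ± 0.06 (adjusted p = 0.0259) over probe sets at -0.39 and -0.02, and its call was lost without undifferentiated replicate 1 or 2 or differentiated replicate 2 or 3 (adjusted p from 0.0717 to 0.0958). Numb, an endocytic inhibitor of Notch, was at 0.11 ± 0.05 and did not pass.

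A list of 11 genes held the Hes and Hey families with Nrarp and Dtx1. Of these, 4 were higher, none lower and 7 did not pass, beside 16.4% higher and 19.1% lower of all genes. Whether each of them responds to Notch in these cells was not tested. After Hes1 came Hes6 (0.44 ± 0.12, adjusted p = 0.0168), whose product opposes that of Hes1, then Hes2 (0.30 ± 0.07, adjusted p = 0.00813) and Dtx1. Hes6 lost its call without differentiated replicate 2 (0.37, adjusted p = 0.0601) or differentiated replicate 3 (0.42, adjusted p = 0.0556), and Dtx1 without undifferentiated replicate 1, differentiated replicate 2 or differentiated replicate 3 (adjusted p from 0.0517 to 0.0834). Nrarp, a feedback inhibitor and direct Notch target, read -0.03, -0.05 and 0.04 on undifferentiated and -0.07, 0.04 and 0.03 on differentiated arrays. Its difference was 0.01 ± 0.06 (95% interval -0.12 to 0.14, adjusted p = 0.909), an interval that lies below the log2 fold change of Hes1. Whether Nrarp read above background is unknown, so the interval cannot exclude such a change in RNA. Hes5 (0.12 ± 0.08), Hey2 (0.08 ± 0.07) and Heyl (0.23 ± 0.13) did not pass either, though Heyl did with the replicate number as a block (adjusted p = 0.0191). Whether Hes1 differed from these genes in its change was not tested.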

How the data were processed

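The authors deposited log2 values from RMA (named in the submitters' processing notes without a version). Their centring is seen only in the values (row medians of 0 to within 1e-06), the log base is that of RMA, and higher was taken as more RNA. Of 28856 probe sets, the 21789 that name 1 gene were used, with symbols updated by gene ID through RefSeq (GRCm38.p6) for 21698. Probe sets of a gene were averaged (999 of 19938 genes). Differentiated minus undifferentiated was fitted with limma 3.58.1 in R 4.3.3 with no block, and the fit was checked on simulated data. Errors are moderated standard errors.

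Members and lists were chosen with earlier results of these data known. Named genes were all members, up to 4 called genes per list by size of change, Rbpj, Adam10, Nrarp and the nearest genes (1 gene of the rule is not reported here), and others were named after their values were seen. Marker lists of macrophages and osteoclasts (3 of 12 higher), adipocytes (2 of 8 higher) and chondrocytes (2 of 8 higher, 1 lower) were also read. Of all genes, 16.4% were higher and 19.1% lower. Of 13 short motifs looked at, the 4 described were chosen after matches were seen. Alternatives were a replicate block, other scalings, other probe set rules, array weights, robust eBayes and each array left out. A filter on dim genes needs levels and was not run.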

Additional observations from a re-analysis of the deposited data

How the results depend on the processing

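The calls for Notch1, Notch2, Jag1 and Hes1 and their directions held under each of the 14 alternatives, from 0.81 to 1.08, 0.87 to 1.02, -0.68 to -0.57 and 1.00 to 1.32 on the log2 scale. Cyclic loess turned the sign of Notch4 (-0.03) and of Dll1 (-0.03), neither of them called, and the cause was not tested. With 1 array left out, which lowers the number of samples, Notch4 ran from 0.05 to 0.21, Dll1 from -0.01 to 0.10 and Hey1 from -0.28 to 0.04, and the lower members numbered 1 to 2. Notch4 passed without undifferentiated replicate 3 and Hey1 without undifferentiated replicate 1. Genes called over all genes numbered 6003 to 7523, and those of the pathway lists 29 to 37. Deviations from the group mean correlated at -0.00133, 0.0692 and 0.162 between same-numbered arrays, and from -0.183 to 0.135 between the others. With 3 arrays per group these values cannot decide whether the replicate numbers pair the arrays. With the replicate number as a block 7162 genes were called in place of 7070, the same 4 members were called, and not every array correlated best with its own number. Signal over background is unknown.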

Other observations

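A further 6 probe sets name Notch4 together with Sympk, a gene for a scaffold protein of messenger RNA 3′ end processing, and entered no gene result. Their differences, differentiated minus undifferentiated, ran from -0.12 to 0.04 on the log2 scale, beside 0.13 for the probe set that names Notch4 alone. Which of the genes they read cannot be told from the annotation.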
